A study of Mus musculus with 4 samples.

Results

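The genes described here are 34 genes of cholesterol synthesis, fatty acid synthesis and their control by the sterol regulatory element binding proteins (SREBPs), taken by symbol from a table of 24411 genes. All 34 were found in the table, and all 34 passed the low-count filter that left 12810 genes for testing. They fall into a sterol arm of 17 enzymes, a fatty acid arm of 11 enzymes, and 6 genes of SREBP control and sterol transport. The list was selected on pathway membership with earlier results from the counts of these same 4 libraries in view. The order of the libraries across its members is therefore given as a description and carries no test.

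RNA was sequenced from the sublingual gland, which is a mainly mucous salivary gland, in female mice on the C57BL/6J background that carried the Nkx2.3-/- genotype. Mice were 8 weeks old (n = 2 libraries, replicates 1 and 2) or 32 weeks old (n = 2 libraries, replicates 3 and 4), called young and old below and listed in this order. All 4 libraries share the knockout and glands with intact Nkx2-3 were not analysed here. Nothing in the labels says that the libraries came from separate animals, and p-values then measure only the spread between these libraries, which may be technical.

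Cholesterol is built from acetyl-CoA through mevalonate, isoprenoid pyrophosphates, squalene and lanosterol. Fatty acids are built from the same acetyl-CoA by carboxylation, chain building, elongation and desaturation. SREBPs are membrane-bound transcription factors that Scap escorts out of the endoplasmic reticulum when sterol is low, and that Insig proteins hold back when sterol is high. Srebf2 encodes the form best known for sterol genes, and Srebf1 encodes forms best known for fatty acid genes.

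Total counts lay between 12925869 and 16484772 per library, and the members took 0.102% to 0.195% of them. Levels are given as CPM, counts scaled to library size and TMM factors. A level per length is CPM per kilobase of the longest annotated coding transcript. The labelled ages did not group the libraries. Across all tested genes, which do not replicate each other independently, Pearson's r of log2 CPM was 0.955 between the 8-week libraries, 0.977 between the 32-week libraries, and highest, 0.982, between 8-week replicate 1 and 32-week replicate 4. The lowest values of r all involved 8-week replicate 2, at 0.955, 0.967 and 0.958 with replicates 1, 3 and 4. Pairs without it had 0.976 to 0.982. It was the highest library in 4450 and the lowest in 4518 of 12810 genes, more often than any other library. This library is among those with high sterol enzymes below, and the part of its general departure in that pattern was not tested. Nkx2-3 itself had 21 to 31 counts in each library, and the sources used here do not say which part of the gene was removed. In whole-gland RNA, fewer cells of a type and less RNA per cell cannot be told apart.

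Promoter sequences are shown for 5 members, some for their values below and some for their place in the pathway. Idi1 varied most among the sterol enzymes, and Ebp varied least. Insig1 had the highest level per length of the 33 members with an annotated length. Srebf2 and Fasn are the SREBP gene and the fatty acid enzyme that readers of this pathway look for first. Each sequence is the 250 bases before a RefSeq start site (GRCm38.p6), written 5′ to 3′ on the gene's strand. Capitals mark letters that match CCAAT (the box bound by NF-Y), CACGTG (an E-box) or TCACNCCA (the core of a sterol regulatory element, with N any base) on either strand. The longest run of capitals in Fasn is a pair of NF-Y box matches on opposite strands that overlap.
Idi1: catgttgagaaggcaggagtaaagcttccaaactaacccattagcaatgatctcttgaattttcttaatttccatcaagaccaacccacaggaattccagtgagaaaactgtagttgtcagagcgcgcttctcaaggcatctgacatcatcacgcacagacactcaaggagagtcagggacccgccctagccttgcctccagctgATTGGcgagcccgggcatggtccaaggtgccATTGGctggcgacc
Ebp: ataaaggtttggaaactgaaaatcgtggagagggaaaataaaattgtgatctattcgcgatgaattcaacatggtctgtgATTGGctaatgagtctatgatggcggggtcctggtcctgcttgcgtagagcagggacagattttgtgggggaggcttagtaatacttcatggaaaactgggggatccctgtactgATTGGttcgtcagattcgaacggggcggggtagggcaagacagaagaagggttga
Insig1: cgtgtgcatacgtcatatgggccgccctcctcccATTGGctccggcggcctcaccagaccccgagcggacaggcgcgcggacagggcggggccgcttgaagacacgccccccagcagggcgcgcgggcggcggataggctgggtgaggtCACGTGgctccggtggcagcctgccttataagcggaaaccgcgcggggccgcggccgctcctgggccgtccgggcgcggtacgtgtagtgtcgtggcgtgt
Srebf2: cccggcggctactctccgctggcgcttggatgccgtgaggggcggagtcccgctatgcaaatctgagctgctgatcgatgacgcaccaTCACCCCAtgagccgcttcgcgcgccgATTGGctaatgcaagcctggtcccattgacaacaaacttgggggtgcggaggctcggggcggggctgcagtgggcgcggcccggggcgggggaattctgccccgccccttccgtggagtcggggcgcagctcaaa
Fasn: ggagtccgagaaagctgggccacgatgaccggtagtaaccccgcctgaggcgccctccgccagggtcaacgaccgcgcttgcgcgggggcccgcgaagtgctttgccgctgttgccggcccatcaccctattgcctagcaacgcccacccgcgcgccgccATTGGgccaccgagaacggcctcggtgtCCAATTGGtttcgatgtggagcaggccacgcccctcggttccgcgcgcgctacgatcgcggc
The windows are chr13:8885356-8885605 (plus strand) for Idi1, chrX:8193513-8193762 (minus strand) for Ebp, chr5:28071162-28071411 (plus strand) for Insig1, chr15:82147019-82147268 (plus strand) for Srebf2 and chr11:120824548-120824797 (minus strand) for Fasn. Idi1 and Ebp, the most and the least variable sterol enzymes, each hold 2 NF-Y box matches. Those of Idi1 begin 45 and 14 bases before the start site, and those of Ebp 170 and 55 bases before it. Insig1 holds an NF-Y box 216 bases and an E-box 101 bases before its start. Srebf2 holds the sterol element core 162 bases and an NF-Y box 135 bases before its start. Over all windows of this length, 33.8% of 32851 hold an NF-Y box, 6.02% an E-box and 3.67% the sterol element core. RefSeq windows were found for 27 of the 34 members, some with several start sites. NF-Y boxes were found in 13 of 17 windows of sterol enzymes, 4 of 9 of fatty acid enzymes and 5 of 10 of control genes. The sterol element core was found in 1 window of the sterol arm, that of Hmgcs1 (137 bases before the start), in that of Srebf2 and in no window of the fatty acid arm. A match is a description of letters, and the windows that lack one may hold other forms of the element.

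The sterol enzymes were high together in 8-week replicate 2 and 32-week replicate 3 and low together in 8-week replicate 1 and 32-week replicate 4. In 15 of the 17 enzymes the 2 highest libraries were 8-week replicate 2 and 32-week replicate 3. The same order held in 20% of all genes tested. All 17 were higher in 8-week replicate 2 than in replicate 1, with a median ratio of 1.99. At 32 weeks, 16 of 17 were higher in replicate 3 than in replicate 4, with a median ratio of 2.56. Over all genes tested these median ratios were 0.999 and 0.992.

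The early, mevalonate-forming steps already showed this order. Acat2, which joins acetyl-CoA units in the cytosol, had 11.7 and 31.5 CPM in the young libraries and 24.4 and 10.3 CPM in the old ones. Hmgcs1, which makes HMG-CoA, had 19.6 and 47.1 CPM in the young libraries and 53.6 and 14.4 CPM in the old ones. In both genes each age held 1 high and 1 low library, so the ages overlapped. The mevalonate kinase Mvk varied less, with 6.72 and 11.7 CPM in the young libraries and 9.89 and 7.68 CPM in the old ones. Pmvk, the next kinase (NCBIM37 chromosome 3, 89263040 to 89272935), had 16.9 and 33.7 CPM in the young libraries and 28.8 and 21.5 CPM in the old ones. Mvd, the decarboxylase that makes isopentenyl pyrophosphate, was low throughout, at 1.45 to 5.12 CPM, with its lowest value in 32-week replicate 4.

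Idi1 and Fdps, which handle the isoprenoid units, had the widest spread of the arm. Idi1, the isomerase of isopentenyl pyrophosphate (chromosome 13, 8884852 to 8891641), had 1.18 and 6.97 CPM in the young libraries and 3.73 and 0.756 CPM in the old ones. Its highest library was 9.22 times its lowest, the largest such ratio among the 34 members. The lowest rested on 13 counts, with an exact 95% Poisson interval of 0.403 to 1.29 CPM that covers counting error only, and the highest on 101 counts with an interval of 5.68 to 8.47 CPM. These intervals do not meet. Fdps, farnesyl pyrophosphate synthase (chromosome 3, 88897514 to 88905881), had 25.02 and 65.7 CPM in the young libraries and 81.8 and 16.9 CPM in the old ones. It was the sterol enzyme with the highest level per length, at a mean of 38.4 CPM per kilobase over the 4 libraries. Ggps1, which leads farnesyl units away from sterols toward geranylgeranyl groups, did not share the order, with 22.1 and 29.8 CPM in the young libraries and 19.8 and 21.5 CPM in the old ones. Of its exons, 170 bases are shared with Arid4b on the opposite strand.

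The enzymes that make squalene and close it into lanosterol followed the same libraries. Fdft1, squalene synthase, had 28.3 and 64.6 CPM in the young libraries and 79.4 and 24.1 CPM in the old ones, and 769 of its exon bases are shared with Ctsb on the opposite strand. Sqle, squalene epoxidase (chromosome 15, 59146632 to 59162747), had 14.9 and 29.6 CPM in the young libraries and 34.1 and 8.03 CPM in the old ones. Lss, lanosterol synthase, had 18.4 and 28.2 CPM in the young libraries and 37.95 and 10.9 CPM in the old ones. For each of the 3 genes the 32-week libraries lay on either side of both 8-week libraries. Within an age the ratio reached 4.25 for Sqle, in the 32-week libraries.

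Of the enzymes that trim lanosterol to cholesterol, some followed and some were nearly flat. Cyp51, lanosterol demethylase (chromosome 5, 4081145 to 4104746), had 9.81 and 22.2 CPM in the young libraries and 29.7 and 6.398 CPM in the old ones. Nsdhl, Hsd17b7 and Dhcr7, which act on later sterol intermediates, had their highest library at 2.42, 2.56 and 1.89 times their lowest, and each was highest in 8-week replicate 2 or 32-week replicate 3. Tm7sf2, a sterol reductase, ranged only from 6.64 to 9.06 CPM, and 532 of its exon bases are shared with 1110014N23Rik on the same strand. Ebp, the sterol isomerase (chromosome X, 7762455 to 7770638), had 51.4 and 55.9 CPM in the young libraries and 64.4 and 54.6 CPM in the old ones. Its ratio of highest to lowest library, 1.25, was the smallest of the arm, at a level per length of 32.5 CPM per kilobase that was exceeded in the arm only by Fdps.

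**Figure D1:**
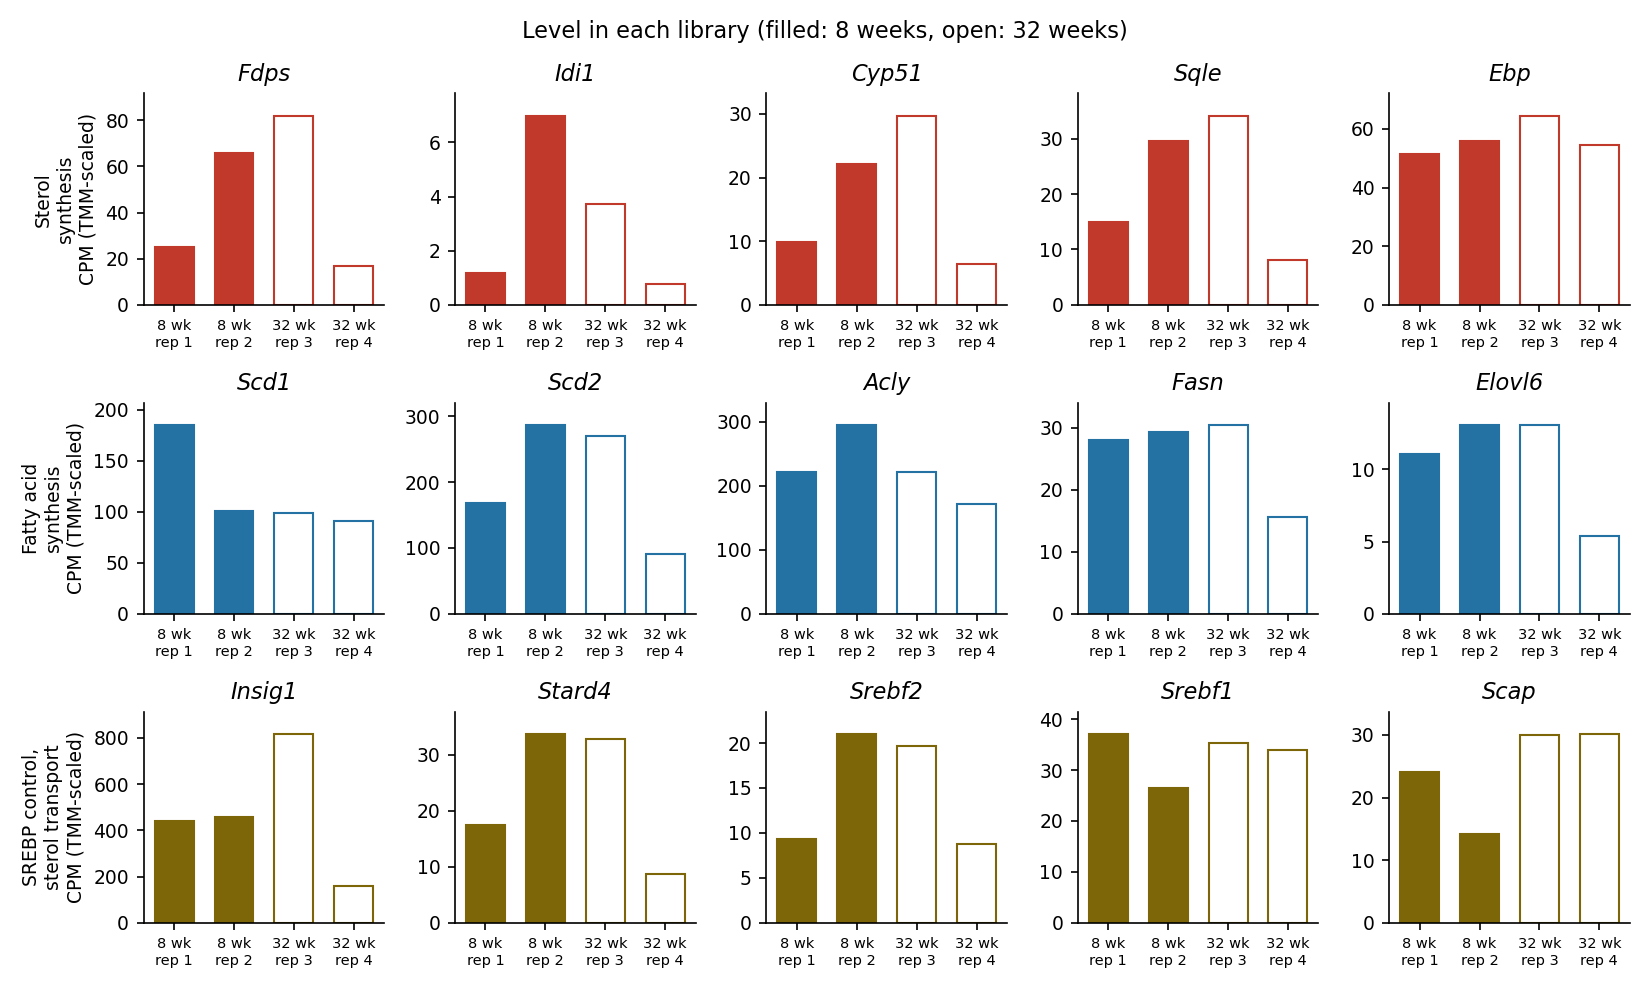
Level of 15 members in each library, in TMM-scaled CPM on linear axes from 0, with 1 bar per library (filled bars, 8 weeks; open bars, 32 weeks) and no error bars. Fdps, Idi1, Cyp51 and Sqle have a high and a low library within each age, Ebp lies between 51.4 and 64.4 CPM, and Scd1 is highest in 8-week replicate 1 at 185 CPM.

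The fatty acid arm was less uniform than the sterol arm. Its median ratio of the highest to the lowest library was 1.75, against 3.06 for the sterol arm and 1.47 for all genes tested. In 6 of the 11 enzymes 8-week replicate 2 and 32-week replicate 3 were the 2 highest, against 20% of all genes tested. With counts scaled by library totals alone the count was 3, against 6.6% of all genes. Among the 6, the Poisson intervals of 8-week replicate 1 and 32-week replicate 3 overlap in Fasn, Elovl5 and Elovl6. For Fasn they are 25.2 to 30.9 and 27.6 to 33.4 CPM, so the place of these genes in that order is uncertain. At 8 weeks 7 of 11 were higher in replicate 2 than in replicate 1 (median ratio 1.18), and at 32 weeks 10 of 11 were higher in replicate 3 than in replicate 4 (median ratio 1.51).

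Among the enzymes that supply acetyl-CoA and reducing power, Acly was the most abundant per length of the whole arm. Acly, ATP citrate lyase (chromosome 11, 100337667 to 100389314), had a mean of 51.4 CPM per kilobase. It had 222 and 295 CPM in the young libraries and 221.0 and 172 CPM in the old ones. Acss2, which makes acetyl-CoA from acetate, had 35.1 and 52.8 CPM in the young libraries and 58.0 and 39.3 CPM in the old ones, so it kept the order of the sterol arm with a ratio of 1.65. Me1, the cytosolic malic enzyme, ranged from 5.18 to 8.02 CPM and did not keep it.

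The enzymes of carboxylation, chain building and elongation were low in 32-week replicate 4 or nearly flat. Fasn, fatty acid synthase (chromosome 11, 120667254 to 120685492), had 28.0 and 29.3 CPM in the young libraries and 30.4 and 15.6 CPM in the old ones. All its libraries but 32-week replicate 4 thus lay within 28.0 to 30.4 CPM. Acaca, acetyl-CoA carboxylase, ranged from 10.3 to 13.9 CPM, and its ratio of 1.35 was the smallest of the arm. Elovl6, an elongase of saturated chains (chromosome 3, 129235304 to 129341413), had the same shape as Fasn, with 11.1 and 13.05 CPM in the young libraries and 13.1 and 5.41 CPM in the old ones. Elovl5, an elongase of polyunsaturated chains, ranged from 10.5 to 18.3 CPM.

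The desaturases Scd1 and Scd2, neighbours on chromosome 19 and close paralogs, differed from each other in library order. Scd1 (44468941 to 44482199) had 185 and 100.6 CPM in the young libraries and 98.99 and 90.8 CPM in the old ones, high in 8-week replicate 1 alone. Scd2 (44368166 to 44381354) had 168 and 287 CPM in the young libraries and 270.3 and 90.9 CPM in the old ones, in the order of the sterol arm. In 8-week replicate 2 Scd1 was 0.544 times and Scd2 1.71 times its level in replicate 1. The sources used here do not say how reads that fit both genes were counted, so the division between them is uncertain. The front-end desaturases Fads1 and Fads2, which act on polyunsaturated chains, were low, at 5.58 to 8.43 CPM and at 2.14 to 4.14 CPM.

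Markers of fat cells were examined beside Scd1, which that cell type expresses strongly. Of 12 adipocyte markers, 7 were tested, and their summed level was 127 and 104 CPM in the young libraries and 85.6 and 104 CPM in the old ones. Pnpla2 and Fabp4 made up most of it, and both are also expressed outside fat. Adipoq stood at 2.95 CPM in 8-week replicate 1, the library with the highest Scd1, and at 0.621, 0.0691 and 0.233 CPM in 8-week replicate 2 and 32-week replicates 3 and 4. Cfd had 12.7 and 2.21 CPM in the young libraries and 0.0691 and 5.41 CPM in the old ones, again highest in 8-week replicate 1. Both were named after their values were seen. Fabp4, Cidec, Retn and Car3 were also highest in that library, but Pnpla2, Plin4, Lipe, Lep and Cidea were not. Pnpla2 had 45.8 and 71.0 CPM in the young libraries and 49.7 and 55.5 CPM in the old ones. The median over the tested markers, against each gene's mean (log2), was 0.32 and 0.15 in the young libraries. In the old ones it was -0.14 and 0.49, highest in 32-week replicate 4, where Scd1 was lowest. Plin1 had 0.148 CPM in 8-week replicate 1 and no count in the others, where a count of 0 allows up to 0.207 CPM in 8-week replicate 2 and in 32-week replicate 3 and up to 0.174 CPM in 32-week replicate 4 (3 counts, counting error only). The part of fat cells in the Scd1 value was not tested.

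Of the 6 control genes, 3 kept the order of the sterol arm (Srebf2, Stard4 and Insig1) and 3 did not. Srebf2 (chromosome 15, 81977696 to 82035806) had 9.30 and 21.0 CPM in the young libraries and 19.7 and 8.72 CPM in the old ones, with ratios of 2.26 within each age. Srebf1 (chromosome 11, 60012591 to 60036083) had 37.0 and 26.4 CPM in the young libraries and 35.3 and 33.9 CPM in the old ones, with its lowest value in 8-week replicate 2, a library in which Srebf2 was high. The table does not separate the transcript forms of Srebf1. Stard4, a carrier of cholesterol between membranes, had 17.5 and 33.7 CPM in the young libraries and 32.9 and 8.72 CPM in the old ones, again in the order of the sterol enzymes.

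Insig1 kept the order of the sterol arm, but with nearly equal levels at 8 weeks. Insig1 (chromosome 5, 28397952 to 28405201), which retains the Scap and SREBP complex, had a mean of 177 CPM per kilobase. It had 440.2 and 456 CPM in the young libraries and 816 and 159 CPM in the old ones. The 8-week libraries differed by a ratio of only 1.04, while the 32-week libraries differed by 5.12. Insig2, its relative, ranged from 32.7 to 37.9 CPM, and its ratio of 1.16 was the smallest among the 34 members. Scap (chromosome 9, 110235792 to 110287450) had 24.1 and 14.2 CPM in the young libraries and 30.001 and 30.129 CPM in the old ones, and 985 of its exon bases are shared with 5830462I19Rik on the opposite strand. It was lowest in 8-week replicate 2, where the sterol enzymes were high.

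The 2 arms were then compared within each library. For each member the mean log2 CPM over the 4 libraries was subtracted, and the median over the arm was taken. The sterol arm stood at -0.46 and 0.48 in 8-week replicates 1 and 2 and at 0.70 and -0.76 in 32-week replicates 3 and 4. The fatty acid arm stood at 0.13 and 0.23 in the 8-week libraries and at 0.29 and -0.37 in the 32-week libraries. The median over all genes tested lay between 0.00 and 0.01 in every library. Because each gene is set against its own mean, values in the 4 libraries are not independent of each other.

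The sterol arm minus the fatty acid arm was -0.59 in 8-week replicate 1 and 0.25 in 8-week replicate 2, and 0.41 in 32-week replicate 3 and -0.39 in 32-week replicate 4. The mean was -0.17 ± 0.59 (SD, n = 2) at 8 weeks and 0.01 ± 0.56 (SD, n = 2) at 32 weeks, so the ages differed by less than the spread within either. In 8-week replicate 1 all 17 sterol enzymes were below their own mean while 6 of 11 fatty acid enzymes were above theirs. In 32-week replicate 4 the arms lay on the same side, with 16 of 17 sterol and 11 of 11 fatty acid enzymes below their means. By summed level, the sterol enzymes had 0.368 and 0.58 times the CPM of the fatty acid enzymes at 8 weeks and 0.706 and 0.501 times at 32 weeks. Most of the fatty acid sum came from Acly, Scd2 and Scd1, so these ratios say little about the other enzymes of that arm.

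**Figure D2:**
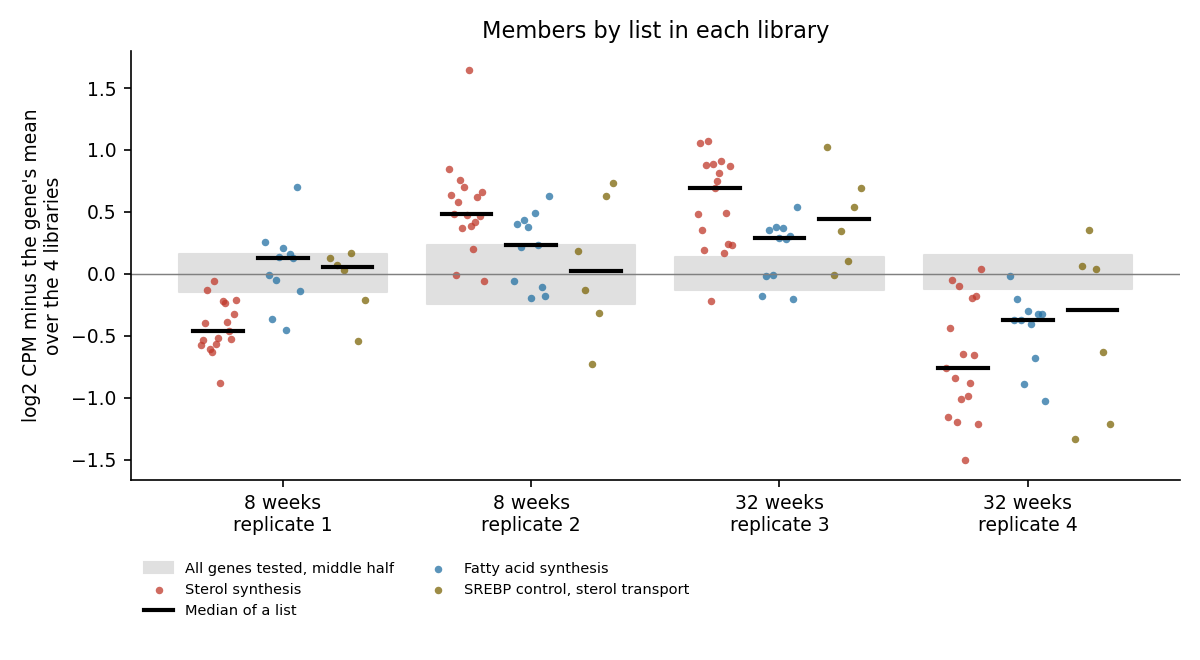
Each point is 1 member in 1 library, as log2 CPM minus that gene's mean over the 4 libraries, coloured by list; black lines are list medians and grey boxes span the interquartile range of all genes tested. The sterol median is -0.46, 0.48, 0.70 and -0.76 from left to right, and the fatty acid median is 0.13, 0.23, 0.29 and -0.37.

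Ratios between libraries of the same age put the arms side by side gene by gene. At 8 weeks they ran from 1.09 to 5.91 across the sterol enzymes (replicate 2 over replicate 1) and from 0.544 to 1.94 across the fatty acid enzymes. At 32 weeks they ran from 0.922 to 4.94 (replicate 3 over replicate 4) and from 0.894 to 2.97. Both ratios exceeded 1.5 in 11 of 17 sterol enzymes, in 2 of 11 fatty acid enzymes (Fads2 and Scd2), and in 2 of 6 control genes (Srebf2 and Stard4). The cut of 1.5 was not among the planned settings, and the share of all genes past it is not given. The members that did not pass it in both ages were spread over the pathway, and Ebp, Tm7sf2 and Ggps1 were among them in the sterol arm. Some of them differed within 1 age, such as Mvd, Elovl6 and Insig1 at 32 weeks (ratios 3.52, 2.42 and 5.12).

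**Figure D3:**
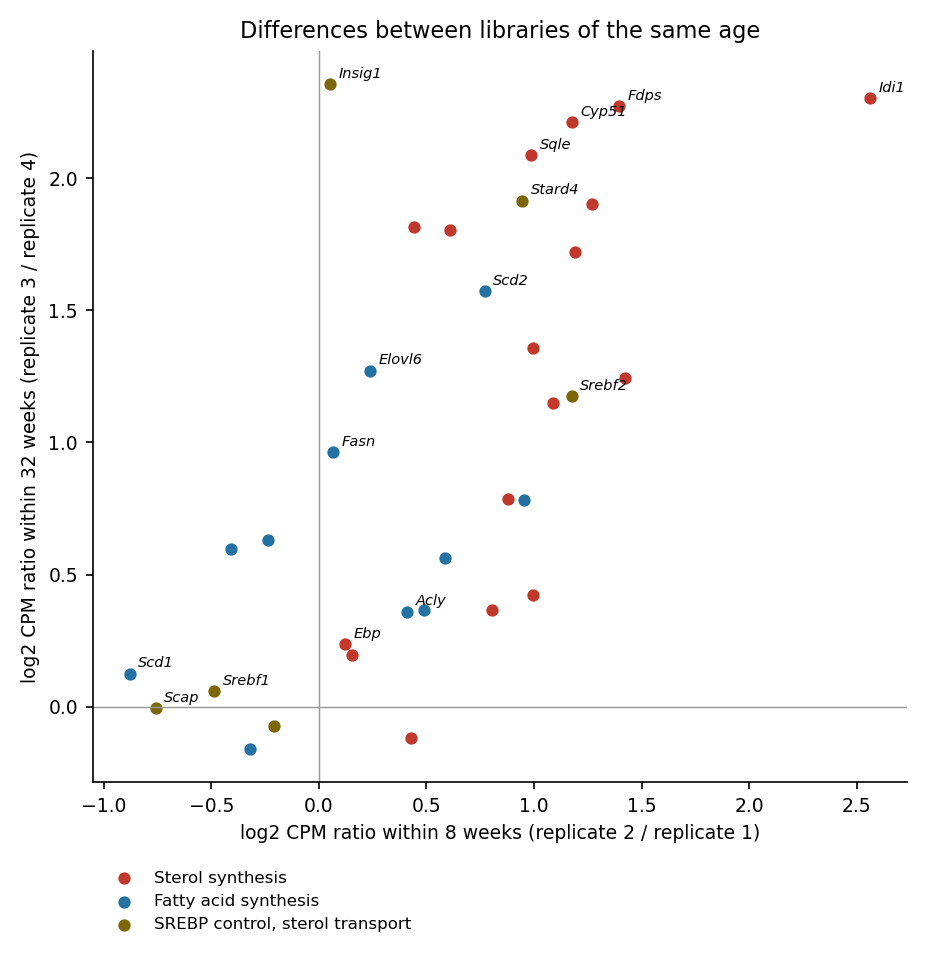
Each point is 1 member, with the log2 ratio of CPM between the 8-week libraries (replicate 2 over replicate 1) on the horizontal axis and between the 32-week libraries (replicate 3 over replicate 4) on the vertical axis. Most sterol enzymes lie to the upper right, Insig1 lies high on the vertical axis with a ratio of 5.12 at 32 weeks and 1.04 at 8 weeks, and Scd1 and Scap lie to the left.

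Other genes of the pathway, from lists that were likewise drawn up with earlier results known, were read in the same libraries. Of 11 tested genes of sterol synthesis and its side branches, none passed the age test and 5 had 8-week replicate 2 and 32-week replicate 3 highest. Msmo1, the sterol methyl oxidase, had 14.5 and 35.2 CPM in the young libraries and 42.5 and 8.90 CPM in the old ones. It shared the order of the sterol arm.

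Of 25 tested genes of fatty acid elongation, activation and supply, none passed the age test and 11 had that order. Idh1, a cytosolic source of NADPH, had 29.1 and 50.3 CPM in the young libraries and 41.3 and 23.2 CPM in the old ones. Gpam, which starts glycerolipid synthesis, did not follow, with 4.80 and 10.4 CPM in the young libraries and 3.94 and 7.74 CPM in the old ones. Of 22 tested genes of SREBP processing and sterol sensing, none passed the age test and 8 had that order. The exporter gene Abcg1 had 19.9 and 46.2 CPM in the young libraries and 27.4 and 24.5 CPM in the old ones.

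Some cell type and growth markers differed between the same libraries. The serous and demilune markers (8 of 8 tested, none at 0) summed to 163050 and 347520 CPM in the young libraries and 463520 and 185150 CPM in the old ones, most of it Dcpp3 and Dcpp2. The 6 proliferation markers, all tested, summed to 18.7 and 26.2 CPM in the young libraries and 23.2 and 14.4 CPM in the old ones. Both sums were higher in the libraries with high sterol enzymes, but not every marker was. Aqp5, a water channel of acinar cells, had 540.1, 242, 602 and 467 CPM in the 4 libraries, and Pigr, the transporter of secretory antibody, had 1668, 1318, 1728 and 1822 CPM, both lowest in 8-week replicate 2. Lyz1 was highest in 32-week replicate 4, and the replication factor gene Mcm2 was highest in 8-week replicate 1. Aqp5, Pigr and Lyz1 were named after their values were seen. The 10 duct markers, dominated by Klk1, summed to 2581 and 5350.4 CPM in the young libraries and 2815 and 1837 CPM in the old ones. The 5 macrophage markers found summed to 155 and 91.4 CPM in the young libraries and 104 and 141 CPM in the old ones, the opposite order. Most of that sum was Lyz2. Csf1r alone of these markers did not share it, with 13.7 and 14.8 CPM in the young libraries and 15.5 and 17.7 CPM in the old ones. The 7 B cell and plasma cell markers found, 6 of them tested, summed to 1626 and 529 CPM in the young libraries and 1281 and 1448 CPM in the old ones. Nearly all of it was Jchain and Xbp1. Jchain had 920 and 73.7 CPM in the young libraries and 512 and 799 CPM in the old ones. Xbp1 had 683 and 451 CPM in the young libraries and 751 and 628 CPM in the old ones. The part of these cells in the sterol pattern was not tested.

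Myelin, muscle, mucous and myoepithelial markers were read in the same way. Of 10 Schwann cell and myelin markers 6 were tested and Pmp2 had no count, and their sum ranged from 112 to 138 CPM. The 8 skeletal muscle markers, of which 2 were tested, summed to 2.95 to 6.81 CPM, with Myh1 and Pvalb at 0. The 6 mucous acinar markers, of which 5 were tested, were led by Muc19 and summed to 13065 and 14428 CPM in the young libraries and 21263 and 17732 CPM in the old ones. That sum is mostly Muc19. The other 4 tested markers were all lowest in 8-week replicate 2, a library with high sterol enzymes, and the median over the list there was -0.47 against each gene's mean (log2). Agr2, a chaperone of mucin folding named after its values were seen, had 57.2, 5.59, 49.6 and 49.7 CPM in the 4 libraries. The part of mucous cells in the sterol pattern was not tested. The 6 myoepithelial markers summed to 415 to 572 CPM, highest in 32-week replicate 4. The 45S ribosomal RNA precursor Rn45s had 477289 and 200030 counts at 8 weeks and 369833 and 544165 counts at 32 weeks, lower in the libraries with high sterol enzymes, and its part was not tested.

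No member differed between the ages by the test across all genes. With edgeR's quasi-likelihood test, 0 of 34 members reached a Benjamini-Hochberg adjusted p of 0.05 over the 12810 genes, and 0% of all genes did. The smallest adjusted p among the members was 0.999. Before adjustment over the genes in edgeR's fit, Scap alone among the members was under 0.05, as were 1.36% of all genes. DESeq2 called 0.0166% of 18104 genes and limma-voom 0%, with no member among them, and Scap alone was under 0.05 unadjusted in each.

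For almost every member, the libraries of at least 1 age differed by more than the ages did. In 33 of 34 members the larger within-age log2 ratio exceeded the log2 fold change between the ages in size, the exception being Tm7sf2. The larger ratio is set against a single difference of means, and the share of all genes is not given. The count is therefore a description. In the other age the ratio could be small, as for Scap and Scd1 at 32 weeks (0.996 and 1.09). The median log2 fold change (32 weeks over 8 weeks) was 0.02 for the sterol arm, -0.32 for the fatty acid arm and 0.09 for the control genes, against -0.01 for all genes tested. With total counts only the sterol median was -0.11 and the control median -0.045, and with limma-voom they were -0.13 and -0.029, so both signs turned. Of all members 16 of 34 had a positive value, against 48.3% of all genes. In the sterol arm 9 members had a positive and 8 a negative value, and in the fatty acid arm 3 and 8. The 95% interval reached a median of 0.87 log2 units to either side, and as far as 2.05 for Idi1.

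Few members had ages that did not overlap. Tm7sf2 and Scap were higher at 32 weeks, against 14.4% of all genes, and Ggps1, Scd1 and Acly were lower, against 14.2%. Acly's ages were separated only by 221.68 against 221.00 CPM, and 2 members rather than 3 were lower without overlap under RLE size factors and again with no low-count filter. Scd1 had a log2 fold change of -0.59 (SE 0.30, 95% interval -1.30 to 0.12, edgeR adjusted p = 0.999). Leaving out 8-week replicate 1 gave -0.082 for Scd1, and leaving out replicate 2 gave -0.96. Scap had 0.65 (SE 0.27, 95% interval 0.03 to 1.27, edgeR adjusted p = 0.999). The call for Scap rested on which libraries were used, since without 8-week replicate 1 its log2 fold change was 1.08 with an edgeR adjusted p = 0.0335, and without 8-week replicate 2 it was 0.33 with an adjusted p = 0.98. Across its other alternatives the adjusted p was 0.995 to 1.00. Acly had -0.39 (SE 0.25, edgeR adjusted p = 0.999), and leaving out 8-week replicate 2 gave -0.17 and 32-week replicate 4 -0.22. With 2 libraries against 2, an exact permutation test of a single value cannot go below p = 0.333.

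**Figure D4:**
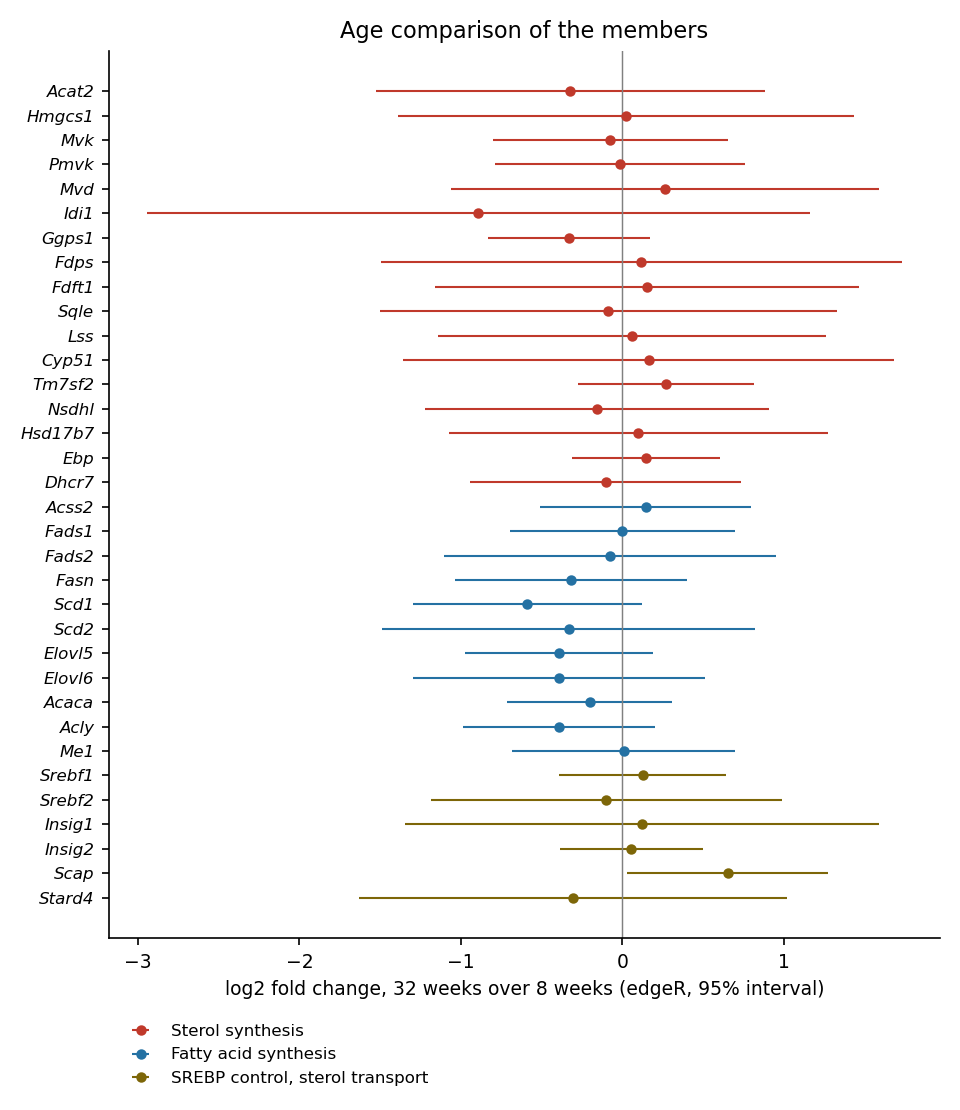
Log2 fold change of the 34 members, 32 weeks over 8 weeks, from edgeR with 95% intervals as bars, coloured by list. The intervals of 33 members include 0, that of Scap runs from 0.03 to 1.27, and the widest belongs to Idi1.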

How the data were processed

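The authors deposited whole-number read counts per gene symbol, 1 column per library, with no normalization. Per the submitters' processing notes, reads were aligned with STAR to mm9; the counting tool, annotation and strand setting are not stated there or in the labels. Columns were matched to libraries by their index label. Counts were tested in R 4.3.3 with edgeR 4.0.16 (TMM factors, default low-count filter by age, quasi-likelihood test, Benjamini-Hochberg adjustment over all 12810 genes kept, threshold 0.05), with age as the only term. DESeq2 1.42.0 and limma-voom (limma 3.58.1) were the other tools. The fits were tested on simulated data first. Log2 CPM used a prior count of 0.5. Positions, exon overlaps and transcript lengths came from GENCODE vM1 on NCBIM37, the assembly mm9 names, which held 33 of the 34 members by symbol (not Hmgcs1). Promoters came from RefSeq (GRCm38.p6), matched by symbol.

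The members and lists were chosen with earlier results of these data known. In each list, full values are given for the 3 members with the most CPM per kilobase and the 4 with the widest ratio of highest to lowest library. Of genes that are no members, those past the test would be named, and the 2 with the widest ratio at a mean of at least 5 CPM. Some genes this rule names are not reported here. Other names were chosen after their values were seen.

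The alternatives were scaling by RLE size factors or by library totals alone, removal of the 10 genes with most counts, no filter, at least 1 CPM in 3 libraries, a prior count of 5, the other tools, and each library left out. No column of per-sample values was left unused. Figures were drawn with matplotlib 3.10.9.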

Additional observations from a re-analysis of the deposited data

How the results depend on the processing

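No paired analysis was possible because the ages share no replicate number. Scaling and filters cannot move the sterol arm minus the fatty acid arm within a library, so they say nothing of its stability. In the 8 alternatives per library that can move it (other members, the mean, another prior count, another library left out), its sign was kept, at -0.66 to -0.38 in 8-week replicate 1, 0.07 to 0.37 in 8-week replicate 2, 0.20 to 0.58 in 32-week replicate 3 and -0.57 to -0.13 in 32-week replicate 4. One of these, the arms without members that share exon bases with another gene, was chosen after seeing the data. The count of sterol enzymes highest in 8-week replicate 2 and 32-week replicate 3 was 14 or 15 under the 5 other scalings and filters, chosen after seeing the data. With total counts only, that of fatty acid enzymes was 3, and the share of all genes with that order was 6.6%. That setting moved the median log2 fold change of all genes to -0.10, called 10 genes and no member, and left 6 members lower at 32 weeks without overlap. The share of all genes without overlap under that setting is not given. No low-count filter called 7 genes and DESeq2 3, none a member.

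Signs of uncalled age differences turned under some settings. With total counts only they were -0.13 for Hmgcs1, -0.050 for Fdps, -0.095 for Lss, -0.030 for Hsd17b7, -0.11 for Fads1, -0.11 for Me1, -0.062 for Insig1 and -0.028 for Insig2. With at least 1 CPM in 3 libraries, Fads1 was at -3.1e-05. With limma-voom they were -0.13 for Hmgcs1, 0.053 for Pmvk, -0.023 for Mvd, -0.13 for Fdps, -0.18 for Lss, -0.14 for Cyp51, -0.0022 for Hsd17b7, -0.024 for Fads1, -0.033 for Me1 and -0.30 for Insig1. The cause was not tested.

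Leaving out 1 library at a time, with the lone library of an age assumed to vary like the other age, called 6 to 285 genes and 0 to 1 member (Scap, without 8-week replicate 1). Members without overlap numbered 2 to 17 higher and 4 to 24 lower. With 1 library at an age, non-overlap comes more easily, so the shares of all genes given above do not apply. The shares under these settings are not given, so the counts are no result about the members. The median was -0.88 (without 32-week replicate 3) to 0.50 (without 8-week replicate 2) for the sterol arm, -0.57 to 0.12 (without 32-week replicate 3 and 4) for the fatty acid arm and -0.34 to 0.37 (the same) for the control genes. For single members the range was -1.06 to 0.56 for Acat2, -1.20 to 0.80 for Hmgcs1, -0.42 to 0.39 for Mvk, -0.42 to 0.57 for Pmvk, -0.88 to 0.92 for Mvd, -2.41 to 0.90 for Idi1, -1.41 to 0.98 for Fdps, -0.94 to 0.87 for Fdft1, -1.46 to 0.62 for Sqle, -1.09 to 0.71 for Lss, -1.31 to 0.89 for Cyp51, -0.82 to 0.49 for Nsdhl, -0.71 to 0.69 for Hsd17b7, -0.53 to 0.41 for Dhcr7, -0.15 to 0.47 for Acss2, -0.31 to 0.28 for Fads1, -0.50 to 0.48 for Fads2, -0.87 to 0.091 for Fasn, -1.31 to 0.25 for Scd2, -1.15 to 0.12 for Elovl6, -0.33 to 0.30 for Me1, -0.092 to 0.39 for Srebf1, -0.79 to 0.61 for Srebf2, -1.48 to 0.87 for Insig1, -0.039 to 0.17 for Insig2, 0.33 to 1.08 for Scap and -1.54 to 0.37 for Stard4. Of these, only Scap kept its sign. The other members that kept their sign also moved. The range was -0.53 to -0.091 for Ggps1, 0.18 to 0.37 for Tm7sf2 and 0.034 to 0.27 for Ebp. It was -0.96 to -0.082 for Scd1, -0.61 to -0.12 for Elovl5, -0.35 to -0.032 for Acaca and -0.58 to -0.17 for Acly.

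The lowest member count was 13, so depth limited Idi1 and Mvd most.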

Other observations

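Thrsp, a regulator of fat synthesis outside the member list and chosen after its values were seen, had 8.63 and 4.21 CPM in the young libraries and 2.70 and 2.56 CPM in the old ones, so the ages did not overlap. Its log2 fold change was -1.28 (SE 0.39, edgeR adjusted p = 0.999). It was highest in 8-week replicate 1, the library with the highest Scd1 and Adipoq. Elovl1, an elongase of very long chains, had 38.1 and 77.96 CPM in the young libraries and 69.1 and 38.9 CPM in the old ones, in the order of the sterol enzymes. Tecr, the reductase that ends each elongation cycle, was the most abundant tested gene per length in the list of other fatty acid genes, at 103 CPM per kilobase, and had the same order with 116 and 164 CPM in the young libraries and 139.9 and 106 CPM in the old ones.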
